A study of Mus musculus with 16 samples.

Results

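The chemokine receptors Cx3cr1, Ccr1, Ccr2, Ccrl2, Cxcr2, Cxcr3 and Cxcr4 were followed in microglia of the aged and the young mouse hippocampus. They were chosen by symbol, as a named family, and all 7 were found among the 24015 rows of the deposited table. RNA was measured in 6 aged samples (20 months) and 6 young samples (3 months), numbered 1 to 6 within each age, with no treatment at either age. All were labelled C57BL/6 except aged 5 and aged 6, whose strain labels differ in the last digit, which may be an entry error. The cells were sorted after perfusion and dissociation as live, CD11b-positive cells with low CD45, a gate that microglia pass and most blood-derived leukocytes, with high CD45, do not. Whether a sample came from 1 mouse or from several is not in the labels. The p-values therefore describe how these samples spread and not necessarily how mice do. In these bulk samples, fewer cells of a type and less RNA per cell cannot be told apart.

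Chemokine receptors are seven-helix membrane proteins that bind secreted chemokines, signal through inhibitory G proteins and steer the movement of immune cells. Cx3cr1 is a defining receptor of microglia, and its ligand fractalkine (Cx3cl1) is made by neurons. Ccr2 is the receptor that brings monocytes out of the bone marrow and into inflamed tissue, and is commonly used to tell them from microglia. Ccrl2 is an atypical receptor, which binds chemerin and does not signal as the others do.

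No receptor of the set passed the test of age. Of the 7, 5 had enough reads to be tested, and 0 of these 5 had an adjusted p under 0.05 in the limma fit, against 1.73% of all 11579 genes tested. Of all genes tested, 1.27% were called higher in aged samples and 0.458% lower, against 0 and 0 of the 5 receptors. No tested receptor had ages that did not overlap, which 1.16% of all genes tested showed with aged samples higher and 0.717% with aged samples lower. At an unadjusted p under 0.05 there were 3 of the 5, Ccr1, Ccr2 and Cxcr3, against 10.8% of all genes tested. On 8 samples whose reads could be recovered, edgeR called 0 of the 5 (background 0.785%) and DESeq2 called 0 of the 5 (background 2.04%). Ccr1 and Cxcr3 had lower values in aged samples and Ccr2 had higher ones. Cx3cr1 and Ccrl2 were 1.07-fold and 1.03-fold lower in aged samples, within the spread of either age, and Cxcr2 and Cxcr4 were near the limit of detection.

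**Figure D1:**
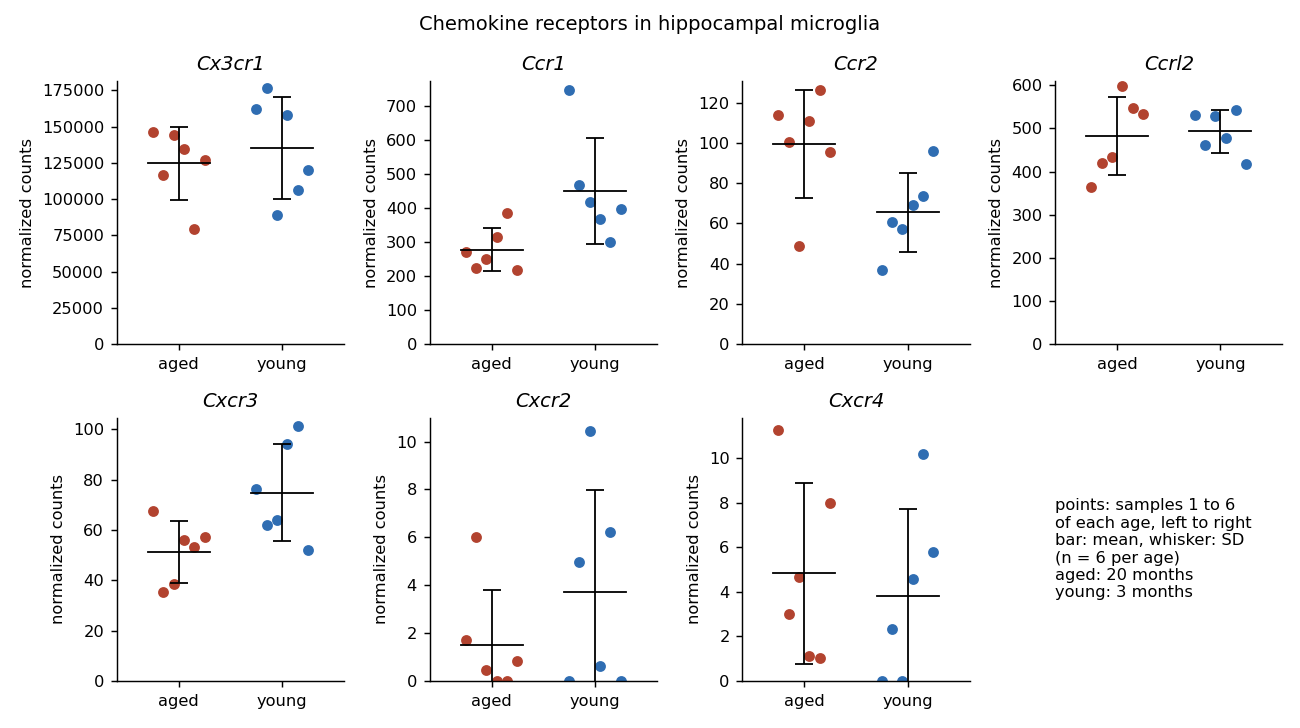
Normalized counts of the 7 receptors in every sample, aged (left, red) and young (right, blue), on linear axes that start at 0; points run from sample 1 to sample 6 of each age, the line is the mean and the whiskers are the SD over 6 samples, cut at 0. The ages overlap for all 7 receptors; all 6 aged samples lie below the young median for Ccr1 and for Cxcr3, and 5 of 6 lie above it for Ccr2.

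The receptors differed far more from each other than between the ages. Set per kilobase of exon, which makes genes of different length comparable, Cx3cr1 stood first, at 27674 ± 5537 normalized counts per kb in aged samples and 30049 ± 7808 in young samples (SD, n = 6 each). Its mean was 149 times that of the next of the 7, Ccrl2, in aged samples and 158 times in young samples. Ccrl2 (186 ± 34.8 aged, 190.0 ± 19.0 young) was followed by Ccr1 (98.0 ± 22.5 aged, 159 ± 55.0 young). The samples of these neighbours did not overlap in aged mice, where the highest Ccr1 value was 136 and the lowest Ccrl2 value 139.8 per kb, but did overlap in young mice. Before division by length they overlapped in aged mice too (highest Ccr1 386, lowest Ccrl2 363 normalized counts). Cxcr3 (29.6 ± 7.07 aged, 43.2 ± 11.2 young) lay below Ccr1 and above Ccr2 (14.7 ± 3.98 aged, 9.70 ± 2.90 young) without overlap at either age. The place of Ccr2 rests on its GENCODE exon length of 6.76 kb, against 1.731 kb for Cxcr3. Before that division Ccr2 had means of 99.4 normalized counts in aged samples and 65.6 in young samples. Cxcr3 had 51.3 in aged samples and 74.9 in young samples. The annotation used for counting was not stated, and other exon lengths were not tested. Cxcr4 (2.68 ± 2.25 aged, 2.11 ± 2.16 young) and Cxcr2 (0.495 ± 0.757 aged, 1.22 ± 1.39 young) closed the order and overlapped each other at both ages; in young samples Cxcr4 also overlapped Ccr2.

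**Figure D2:**
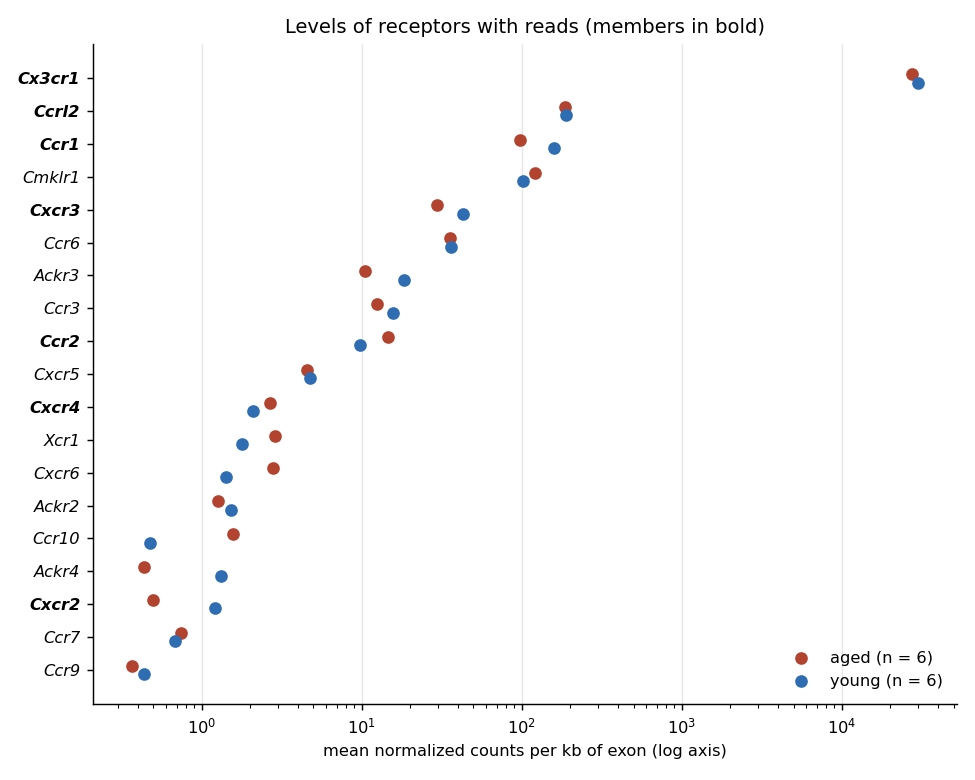
Mean normalized counts per kb of exon (log axis) of the 7 receptors and others of the family with reads in both ages, aged in red and young in blue, the 7 in bold. Of the 7, Cx3cr1 is first at both ages, and Cxcr4 and Cxcr2 lie among the receptors with few reads.

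Cx3cr1, the fractalkine receptor (NCBI gene 13051, chr9:120048683-120068296 of RefSeq on GRCm38.p6, the assembly behind mm10), was by far the most abundant of the 7. Its normalized count ranged in aged samples from a lowest value of 79148 through a median of 130774 to a highest of 146689, and in young samples from 88984 through 139123 to 176631. The ages overlapped widely, and the lowest samples were aged 5 and young 3. The log2 fold change of aged over young was -0.10 (95% interval -0.46 to 0.25, limma adjusted p = 0.91), which leaves fold changes of 0.727 to 1.19 within the interval. Without aged 5 the value was 0.02 (adjusted p = 0.97), on the other side of 0. Its neuronal ligand Cx3cl1 was barely seen in sorted cells (13.4 ± 8.04 normalized counts aged, 18.4 ± 9.51 young; log2 fold change -0.54, adjusted p = 0.86; -0.04 without aged 6). The proteases that release that ligand, Adam10 and Adam17, were abundant, and 0 of the 2 passed; Adam17 had 12323 ± 1231 normalized counts in aged samples and 12813 ± 1477 in young samples (log2 -0.05, adjusted p = 0.90).

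Cx3cr1 spread widely among samples of one age for a gene of its level. Its SD within ages was 0.36 on the log2 scale, higher than that of all 29 other genes with a mean within 2-fold of its own, which had a median SD of 0.10. The next were Psap, which encodes the lysosomal protein prosaposin, at 0.25, and C1qa, a complement subunit made by microglia, also at 0.25. The 3 genes whose values followed Cx3cr1 most closely over the 12 samples, after the mean of each age was subtracted, were Cbl, a ubiquitin ligase (Pearson r = 0.99, Spearman rho = 0.94), Scaf11 (r = 0.98, rho = 0.97) and Camkk2, a calcium-dependent kinase (r = 0.98, rho = 0.96). These were picked from 11578 other genes and are a description. Cbl was lowest in the same samples as Cx3cr1, at 434 normalized counts in aged 5 and 498 in young 3, against 905 to 1491 in the other aged samples and 695 to 1573 in the other young samples. Camkk2 had 565 in aged 5 and 544 in young 3, again the lowest of each age. In all, 56 genes reached r of 0.9 with Cx3cr1 and 6 reached -0.9, against medians of 2 and 2 over all genes tested. Among the receptors Ccr2 (0.47) and Ccr1 (0.38) had larger SDs within ages, at lower levels, where the median SD of genes within 2-fold of their means was 0.41 for Ccr2 and 0.23 for Ccr1, and Ccr1 had 8 genes at r of 0.9 and 24 at -0.9. Aged 5 held 26.3 M reads and young 3 held 41.4 M, against 11.4 to 47.3 M over the 8 samples with known depth; the source of this spread was not tested. GENCODE also lists an antisense gene, Gm33858, that shares 78 exonic bases with Cx3cr1, and the libraries do not mark the strand.

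**Figure D3:**
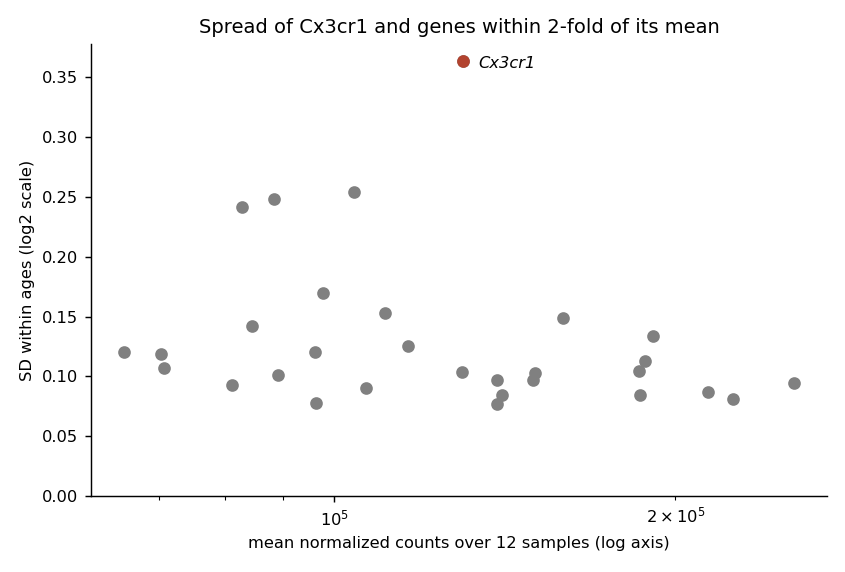
SD within ages on the log2 scale (vertical) against the mean normalized count over 12 samples (horizontal, log axis) for Cx3cr1 (red) and the 29 other genes within 2-fold of its mean (grey). Cx3cr1 lies at 0.36, above all 29 others.

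Ccr1 (gene 12768, chr9:123962126-123968692) binds inflammatory CC chemokines, among them Ccl3, Ccl5 and, in the mouse, Ccl6 and Ccl9. It had a lowest value of 218, a median of 260.2 and a highest value of 386 normalized counts in aged samples, and 299.9, 408 and 746 in young samples. In 4 of 6 aged samples it lay below every young sample, and in 6 of 6 below the young median; aged 4 and aged 5 overlapped the young range. The log2 fold change was -0.66 (95% interval -1.06 to -0.26), which is 1.58-fold lower in aged samples. The unadjusted p was 0.0029 and the limma adjusted p 0.11, which misses the threshold. An exact two-sided permutation test of this gene alone over all assignments of samples to ages gave p = 0.013, where 0.0022 is the smallest possible. Young 1, the shallowest of the 8 samples with known depth at 11.4 M reads, was the highest sample by a wide margin, and without it the log2 fold change was -0.50 (adjusted p = 0.19). Without aged 5 it was -0.76 and passed (adjusted p = 0.047), the single setting of those tried in which a receptor of the set had an adjusted p under 0.05.

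Among the ligands of Ccr1, 4 of 6 were tested and 1 passed, lower in aged samples. Ccl9 fell to 2942 ± 475 normalized counts in aged samples, against 4307 ± 671 in young samples (SD, n = 6 each; log2 fold change -0.55, 95% interval -0.80 to -0.31, adjusted p = 0.018). All 6 aged samples (2181 to 3522) lay below all 6 young samples (3551 to 5266), as 0.717% of all tested genes did. That call was lost when young 1 (adjusted p = 0.0501), young 5 (0.0524) or young 6 (0.0506) was left out, and in the edgeR fit of 8 samples (0.083). Ccl6, Ccl3 and Ccl5 did not pass, with log2 fold changes of 0.05, 0.22 and 0.57. Ccr1 shares a stretch of 47 identical bases with the neighbouring receptor Ccr3, which had 41.0 ± 18.8 normalized counts in aged samples and 51.2 ± 13.1 in young samples.

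Ccr2 (gene 12772, chr9:124101918-124109140) had a lowest value of 49.0, a median of 106 and a highest value of 126 normalized counts in aged samples, and 36.8, 64.9 and 96.0 in young samples. In 4 of 6 aged samples it exceeded every young sample, aged 6 lay just under the highest young sample, and aged 3 lay within the lower part of the young range. The log2 fold change was 0.59 (95% interval 0.05 to 1.13; unadjusted p = 0.034, limma adjusted p = 0.39), and the exact permutation p was 0.058. Young 1, the lowest sample and the shallowest of those with known depth, held 15 reads of Ccr2. Without young 1 the log2 fold change was 0.44 (limma unadjusted p = 0.087, adjusted p = 0.64). Without aged 3 it was 0.78 (limma adjusted p = 0.15). Receptor genes of this family resemble each other, how reads that fit more than 1 of them were counted is not given in the sources used here, and their part in the Ccr2 values was not tested.

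Since Ccr2 marks monocytes, a list of 8 monocyte genes was read beside it. Of the 5 tested, 0 passed and all 5 had a positive log2 fold change, with a median of 0.80 against 0.0016 over all genes tested. Summed and scaled to the total of its sample as CPM, the list held 3.92 to 11.1 CPM in aged samples and 2.29 to 5.84 in young samples. The defining genes Ly6c2 and Vcan were near 0 at both ages, with means of 2.53 and 0.732 normalized counts in aged samples and 1.66 and 1.26 in young samples. The most abundant in aged samples was F13a1, a coagulation factor also made by macrophages of the brain's borders, with 97.7 ± 56.0 normalized counts in aged samples and 33.2 ± 28.4 in young samples (log2 1.86, adjusted p = 0.17); in young samples it was Ms4a4c (64.0 ± 20.7 aged, 41.4 ± 14.6 young). Within the aged samples, aged 3, lowest in Ccr2 at 49.0, held 9.52 monocyte CPM, and aged 6, at 95.7, held the lowest sum, 3.92. Within the young samples, young 1 was lowest in both (36.8 and 2.29 CPM) and young 6 highest in both (96.0 and 5.84 CPM). The part of monocytes in the Ccr2 values was not tested. Of the ligands of Ccr2, 2 of 4 were tested and 0 passed. Ccl2 had 62.8 ± 29.6 normalized counts in aged samples and 63.3 ± 23.1 in young samples, and Ccl12, a mouse ligand of Ccr2, had 934 ± 402 in aged samples and 596 ± 132 in young samples (log2 0.59, adjusted p = 0.22).

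**Figure D4:**
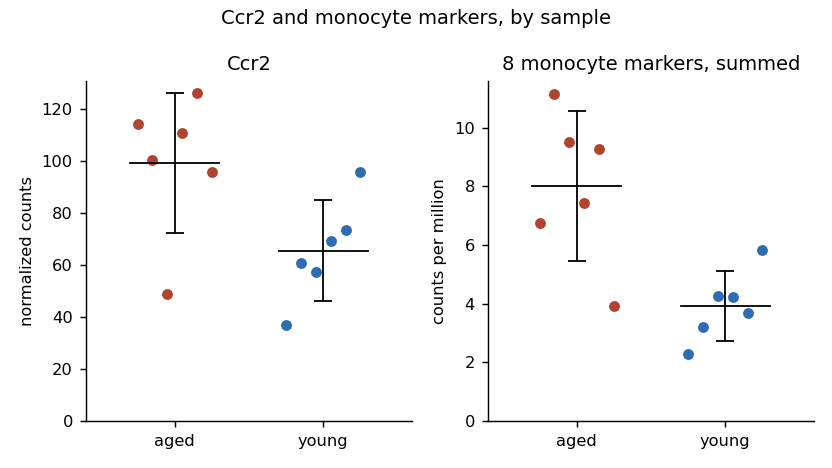
Ccr2 in normalized counts and the summed level of 8 monocyte genes in CPM, by sample, aged left and young right in each panel; the line is the mean, the whiskers the SD over 6 samples. Ccr2 and the monocyte sum have higher means in aged samples, and the ages overlap in each panel.

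Cxcr3 (gene 12766, chrX:101731535-101734147) binds the interferon-induced chemokines Cxcl9, Cxcl10 and Cxcl11 and is best known from activated T cells. It had a lowest value of 35.2, a median of 54.7 and a highest value of 67.5 normalized counts in aged samples, and 52.0, 70.0 and 101 in young samples. All 6 aged samples lay below the young median, but just 2 lay below every young sample. The log2 fold change was -0.53 (95% interval -1.02 to -0.05; unadjusted p = 0.033, limma adjusted p = 0.39), and the exact permutation p was 0.032. T and NK cell genes other than Lck were at or near 0. Of them, Cd3d, Cd3e, Cd3g and Cd8a had means of at most 1.35 normalized counts in aged samples and 1.31 in young samples, and the 10 genes of that list summed to 0.190 to 0.943 CPM in aged samples and 0.241 to 1.67 in young samples. Of the 3 ligands listed for Cxcr3, 2 were tested, Cxcl9 and Cxcl10. Both had higher means in aged samples and 0 passed. Cxcl11, which GENCODE M21 lists as a polymorphic pseudogene in the mouse, was not tested. Cxcl10 had 138 ± 119.6 normalized counts in aged samples and 44.6 ± 19.4 in young samples (log2 1.41, 95% interval 0.56 to 2.25, limma adjusted p = 0.099). The highest Cxcl10 value, 376, was that of aged 4, and the next highest aged sample had 118. In the 8 samples with recovered reads, which include aged 4, DESeq2 called Cxcl10 (log2 1.99, adjusted p = 0.0080). On the same samples edgeR (log2 1.94, adjusted p = 0.17) and limma (1.78, adjusted p = 0.21) did not.

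Ccrl2 (gene 54199, chr9:111054834-111057518), the atypical receptor that presents chemerin to other cells, had a lowest value of 363, a median of 484 and a highest value of 598 normalized counts in aged samples, and 417, 504 and 544 in young samples. The young range lay inside the aged range. The log2 fold change was -0.05 (95% interval -0.31 to 0.22, limma adjusted p = 0.94; exact permutation p = 0.74), which leaves fold changes of 0.805 to 1.16 within the interval. Without aged 1, the lowest sample, it was 0.03. Chemerin itself (Rarres2) had 0.147 ± 0.361 normalized counts in aged samples and was at 0 in all young samples. Cmklr1, the signalling receptor of chemerin, had 414 ± 134 normalized counts in aged samples and 346 ± 68.5 in young samples (log2 0.19, adjusted p = 0.87).

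Cxcr2 (gene 12765, chr1:74153994-74161246) and Cxcr4 (gene 12767, chr1:128588199-128592299) were below the filter, which asked for 10 normalized counts in at least 6 of the 12 samples. Cxcr2, the receptor that draws neutrophils to Cxcl1 and Cxcl2, had a lowest value of 0, a median of 0.647 and a highest value of 6.03 normalized counts in aged samples, and 0, 2.80 and 10.4 in young samples. In the aged samples with recovered reads these were 2, 6, 0 and 0 reads (aged 1, 2, 4 and 5), and in the young ones 0, 16, 11 and 0 reads (young 1, 3, 5 and 6). Where no read was seen, 3 reads, the limit that a count of 0 allows, would be 3.08 to 3.29 normalized counts in aged samples and 3.47 to 7.37 in young samples. The exact permutation test gave p = 0.43. None of the 8 neutrophil genes matched in the table was tested; they summed to 0.342 to 13.2 CPM in aged samples, highest in aged 4, where Cxcr2 had 0 reads, and to 0.682 to 2.73 in young samples. Of the 5 ligands of Cxcr2, 0 were tested, and Cxcl1, Cxcl3 and Cxcl5 were at 0 in all 12 samples.

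Cxcr4, the Cxcl12 receptor that holds leukocytes in the bone marrow, had a lowest value of 1.03, a median of 3.85 and a highest value of 11.2 normalized counts in aged samples, and 0, 3.45 and 10.2 in young samples. The reads were 13, 3, 1 and 1 in aged 1, 2, 4 and 5, and 0, 0, 18 and 5 in young 1, 3, 5 and 6. The ages overlapped, the exact permutation p was 0.50, and no difference was detectable at this depth. Cxcl12 had 2.55 ± 3.67 normalized counts in aged samples and 12.1 ± 6.94 in young samples and was not tested. Mif, a cytokine that can also bind Cxcr4, had 703 ± 185 in aged samples and 629 ± 76.9 in young samples (log2 0.11, adjusted p = 0.91).

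**Figure D5:**
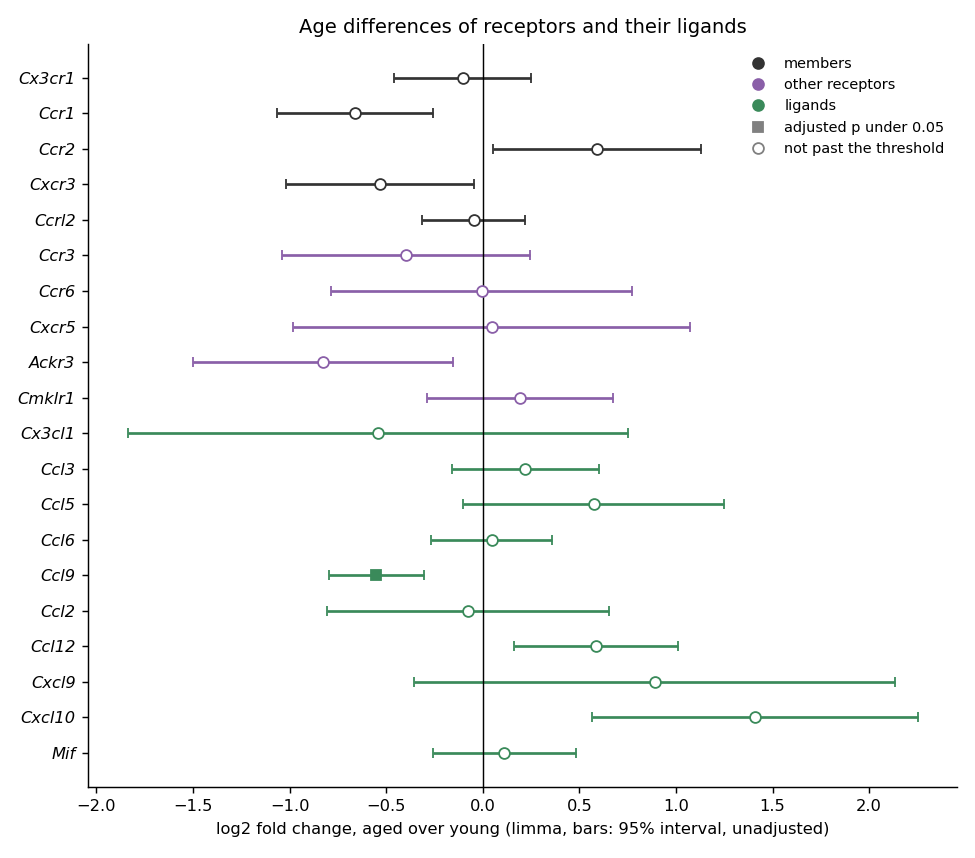
Log2 fold change of aged over young with its unadjusted 95% interval from limma for the 5 tested receptors of the set (black), 5 other receptors of the family (purple) and 10 ligands (green). The filled square, Ccl9 at -0.55, is the single value with an adjusted p under 0.05; of the 5 receptors of the set, Ccr1, Cxcr3 and Ccr2 have intervals that leave out 0.

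The rest of the pathway was read in the same fit. Of 17 other receptors in the table, 6 were tested and 0 passed, and Ccr4, Ccr8, Cxcr1 and Ackr1 were at 0 in all 12 samples. Ackr3, a scavenging receptor that takes Cxcl12 out of the tissue, had 35.0 ± 12.8 normalized counts in aged samples and 61.5 ± 20.3 in young samples (log2 -0.83, adjusted p = 0.30). Of the genes that carry the signal from the receptors (G protein subunits, phosphoinositide 3-kinase, phospholipase C, Rac and its activators), 19 were tested and 0 passed, with a median log2 fold change of 0.03. The smallest p in that list was for Plcb3, a phospholipase C activated by G proteins (3422 ± 516 normalized counts aged, 2907 ± 216 young; log2 0.23, adjusted p = 0.32). Of the genes that switch receptors off (arrestins, receptor kinases and RGS proteins), 10 were tested and 0 passed, with a median of 0.12; the smallest p was for Rgs2 (15212 ± 1841 aged, 17423 ± 1078 young; log2 -0.20, adjusted p = 0.31). Over the lists of other receptors, ligands, proteases, signalling, desensitisation, immediate early and activation genes, 68 distinct genes were tested and 1, Ccl9, passed. Of all 11579 genes tested, 1.73% passed.

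Among genes known to respond to cell isolation or acute activation, 0 of 12 tested immediate early genes and 0 of 10 tested activation genes passed. Fos, an immediate early transcription factor, had 123 ± 172 normalized counts in aged samples and 27.3 ± 10.9 in young samples (log2 1.42, adjusted p = 0.33), with 469 in aged 4, the sample that was also highest in Cxcl10 and Ccl12. Nfkbiz, an inflammatory regulator of NF-kB, had 357 ± 116 in aged samples and 269.7 ± 52.4 in young samples (log2 0.37, adjusted p = 0.49). Whether isolation moved the receptors was not tested.

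The sorted cells matched their label: the 10 microglia genes summed to 44372 to 47945 CPM in aged samples and 48944 to 52776 in young samples. These sums did not overlap between the ages. All 10 genes were tested, and 8 had a negative log2 fold change (median of the 10, -0.17). Tmem119, a membrane protein that marks microglia, had 222139 normalized counts in aged samples and 227643 in young samples, and P2ry12, their ADP receptor, had 176254 in aged samples and 199938 in young samples. Over 13 lists of cell type markers, 38 genes were tested and 3 passed, against 1.73% of all 11579 genes tested. Fcrls, an Fc receptor-like gene of microglia, was lower in aged samples (89490 ± 6869 against 123873 ± 5703 in young samples; log2 -0.47, adjusted p = 0.00038). Cd79b was lower too (864 ± 72.0 aged, 1108 ± 85.2 young; log2 -0.36, adjusted p = 0.038), with the B cell gene Pax5 at 0 in all 12 samples. Aldh1l1, an astrocyte gene, was higher (57.2 ± 26.5 aged, 19.4 ± 8.37 young; log2 1.498, adjusted p = 0.041), at a sum of 2.68 to 8.90 CPM for the 5 astrocyte genes in aged samples and 1.73 to 3.16 in young samples. Cd79b lost its call when aged 1, 2, 3 or 4 or young 1, 3, 4, 5 or 6 was left out (highest adjusted p 0.11), and Aldh1l1 when aged 1, 3, 4 or 5 or young 2, 3, 4 or 5 was (highest 0.11). Cd79b and Aldh1l1 also lost their calls with the replicate block (adjusted p 0.093 and 0.10) and in the 8 samples with 1 library by limma (0.15 and 0.18) and by edgeR (0.14 and 0.15), and Aldh1l1 further with no filter (0.10), quantile normalization (0.080) and no trend (0.054). Without aged 5 and aged 6, Aldh1l1 lost its call (limma adjusted p = 0.097) and Cd79b kept it (0.040). In the other lists 0 genes passed. Of 5 tested border macrophage genes, 4 had a positive log2 fold change (median of the 5, 0.50), among them Cd163 (1.80, adjusted p = 0.44) and Ms4a7 (1.15, adjusted p = 0.36), while the most abundant, Mrc1, had -0.27 (207 normalized counts aged, 226 young). That list summed to 4.66 to 21.4 CPM in aged samples and 8.03 to 12.1 in young samples. Of the dendritic cell genes Zbtb46 had -0.52 (103 normalized counts aged, 134 young) and Flt3 0.70 (55.7 aged, 37.3 young). The most abundant genes of the remaining lists were Lck (T and NK cells, 14.3 normalized counts aged, 17.1 young), Ngp (neutrophils, 33.3 and 9.8), Mbp (oligodendrocytes, 1909 and 1751), Pecam1 (endothelium, 1394 and 1512), Snap25 (neurons, 18.6 and 34.4), Enpp2 (choroid plexus, 987 and 335) and Cpa3 (basophils and mast cells, 0.205 and 0.196). The highest aged Ngp value was 162, and its medians were 7.27 normalized counts in aged samples and 8.63 in young samples. All 4 choroid plexus genes were tested and had a positive log2 fold change (median 1.21), and 0 passed. They summed to 16.0 to 130 CPM in aged samples and 9.66 to 48.3 in young samples. The part of such cells in the receptor values was not tested.

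The closest companions of the other receptors within ages were, for Ccr1, Gpr125 (r = 0.94), Itfg3 (0.93) and Exoc6 (0.92); for Ccrl2, P2rx4, an ATP-gated channel (0.94), Sh3bp2 (0.89) and Epor, the erythropoietin receptor (0.88). For Ccr2 they were Fbxo48 (0.92), Gdap1l1 (0.88) and Gm527 (0.87), all with means under 40 normalized counts, where counting error is large. For Cxcr3 they were Pdlim2 (0.87), Gm16973 (0.86) and Mvk (0.82), and no gene reached 0.9. All are Pearson correlations over 12 samples, chosen as the highest of 11578. Within a sample all genes share its library depth and sorting. Depth differed between samples, from 11.4 to 47.3 M reads over the 8 with known depth. Of these companions, Epor alone passed the test of age (log2 -1.41, adjusted p = 0.0024), while Ccrl2, which it followed within ages, did not.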

How the data were processed

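RNA of 6 aged and 6 young samples of sorted hippocampal microglia was analysed. The authors deposited normalized counts, a signal per gene and sample, in 24015 rows named by symbol; 27 symbols had been turned into dates and 2 repeat. Per the labels' protocols, SmartSeq v4 cDNA and Nextera XT libraries, which keep no strand, were sequenced as read pairs. Per the submitters' processing notes, bcl2fastq, STAR, SAMtools, DESeq2 and mm10 were used; their versions and the gene annotation were not stated. In the 8 samples with 1 library, 100% of positive values lay within 0.1 of a whole read of 1 step per column, and reads were recovered (11.4 M in young 1, 23.4 to 47.3 M in the others). The columns of the 4 samples with 2 libraries (young 2 and 4, aged 3 and 6) gave no whole reads and their depth was not used.

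Genes with 10 normalized counts in at least 6 samples were compared as log2(value + 1), a pseudocount of 1 that understates changes of low genes, with limma 3.58.1 with trend in R 4.3.3, two-sided, and Benjamini-Hochberg adjustment over 11579 genes at 0.05. Fold changes are aged over young, on that scale. Alternatives were other pseudocounts, filters, scalings and sample sets, and edgeR 4.0.16 (91 of 11586 genes called) and DESeq2 1.42.0 on the recovered reads. The script was tested on simulated data. CPM are summed values over the column total. Floors of 3 reads cover counting error only. The receptors and lists were chosen with earlier results of these data known. Named were all 7 receptors, genes of a pathway list that passed or else its smallest p, the most abundant and passing marker genes, and the 3 closest companions of each tested receptor; Ackr3, Cmklr1, Ccr3 and other ligands or markers outside that rule were chosen after their values were seen. Exon lengths come from GENCODE M21. Some items that the rule would name are not reported here.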

Additional observations from a re-analysis of the deposited data

Results flagged for a closer look

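Among 44 groups of 6 samples, 7 had a highest sample whose gap to the next, divided by the range of the group, exceeded the 95% critical value of Dixon's test. For normally distributed values, chance alone gives about 1 in 20 groups with such a highest or lowest sample. The values were used without a log, and whether they are normally distributed was not tested. Young 1 was highest in Ccr1 (gap 0.626 of the range; 746 normalized counts against 299.9 to 467 in the other young samples). Aged 2 was highest in Cxcr2 (0.713; 6.03 against 0 to 1.73 in the other aged samples), a difference of a few reads. Aged 4 was highest in Ccl12 (0.731; 1723 against 597 to 901), in Cxcl10 (0.802; 376 against 54.3 to 118) and in Fos (0.814; 469 against 18.1 to 102). Plcb3 was highest in aged 5 (0.642; 4386 against 2959 to 3470 in the other aged samples) and in young 2 (0.635; 3324 against 2735 to 2950 in the other young samples).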

How the results depend on the processing

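The count of receptors past the threshold was 0 in 24 of 25 alternatives and ranged from 0 to 1 when 1 sample was left out, the 1 being Ccr1 without aged 5 (log2 -0.76, adjusted p = 0.047). Leaving out 1 sample gave log2 fold changes of -0.77 to -0.50 for Ccr1, 0.44 to 0.78 for Ccr2, -0.63 to -0.43 for Cxcr3, -0.22 to 0.02 for Cx3cr1 and -0.11 to 0.03 for Ccrl2. Cx3cr1 changed sign without aged 5 (0.021) and without aged 5 and 6 (0.038), and Ccrl2 without aged 1 (0.031). Read by the exact permutation test of each gene alone, unadjusted, Ccr1 (-0.66, p = 0.013) and Cxcr3 (-0.53, p = 0.032) were under 0.05. Of 68 pathway genes 1 was called, Ccl9; the count was 0 with no trend, without aged 5 and 6, in the 8 samples with 1 library by limma and by edgeR, and 2 by DESeq2, where Cxcl10 joined. It ranged from 0 to 2 when 1 sample was left out, being 0 without young 1, 5 or 6 and 2 without aged 6, where Dock2 joined. Cx3cl1 changed sign without aged 5 and 6 (0.086) and in the 8 samples by limma (0.148), edgeR (0.067) and DESeq2 (0.018), and Mif in the 8 samples by limma (-0.0088). The cause was not tested. With the sample number as a replicate block, the pathway count was 0 and Ccr1 stood at -0.66 (limma adjusted p = 0.20). Samples of 1 number correlated at -0.12 to 0.11 across genes, so no pairing by number was seen. Whether samples of 1 number were handled together was not tested. Depth limits Cxcr2 and Cxcr4, seen with 0 to 18 reads a sample.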
